A study of Mus musculus with 6 samples.

Results

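Germinal centre (GC) B cells that carried a lambda light chain were set against those that carried a kappa light chain, within each of 4 single-cell libraries of mouse spleen taken at day 14 after immunisation. A cell was called lambda when the summed counts of the lambda constant genes Iglc1, Iglc2 and Iglc3 exceeded its Igkc counts and reached at least 2, and kappa when Igkc exceeded the lambda sum and reached at least 2. This gave 11578 lambda and 20061 kappa cells, and left 3470 of 35109 cells in neither class. The members were therefore chosen by the counts of these 4 constant genes, whose values are given only as a description.

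The cells were GC B cells of spleen, sequenced with 10x 5-prime chemistry after mice received an NP-haptenated antigen in alum. Day14 1 and Day14 2 were wild-type mice. The control chimaera was an irradiated Il4ra+/+ host given wild-type marrow, and the KO chimaera an irradiated Ccl19Cre/+ Il4ra f/f host given wild-type marrow, so that Ccl19-expressing stromal cells of the host, and not the transferred B cells, lose the IL-4 receptor alpha chain. All 4 libraries were sorted as B220+ CD95hi GL7hi IgD- cells, and 2 further libraries of 3542 cells at day 7 were not used because their table lists no immunoglobulin gene. The labels do not say whether libraries came from separate or pooled animals, host B cells that survive irradiation cannot be told from donor cells, and each chimaera group is 1 library. P-values therefore measure only the spread between these libraries. Values below are given in the order Day14 1, Day14 2, control chimaera, KO chimaera.

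The libraries held 9109, 10648, 8038 and 7314 cells with a median of 3399, 3178.5, 6676 and 7185.5 UMIs per cell (a UMI marks 1 captured RNA molecule), so the chimaera libraries were the deeper pair. Lambda cells had more UMIs than kappa cells in every library, with medians of 4399 against 3351, 4045.5 against 3235, 7280 against 6542 and 7845 against 7015.5. Pairs of libraries shared 90 to 135 cell barcodes. Of the other cell types the gate could hold, the 10 T cell markers summed to between 58.1 and 101 CPM (counts scaled to a common total over non-immunoglobulin genes) in lambda cells and between 56.6 and 135 in kappa cells, and the 10 myeloid markers to between 331 and 673 and between 324 and 808. None of these 20 markers was at 0, and their part in the results was not tested.

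Each B cell assembles 1 heavy chain and 1 light chain. In mice the kappa locus usually rearranges before the lambda locus, and a cell that turns to lambda has often deleted or inactivated its kappa genes. The antibody response of C57BL/6 mice to the hapten NP is a textbook exception to the dominance of kappa: its characteristic antibodies pair the heavy chain segment V186.2, named Ighv1-72 in the gene annotation, with the lambda-1 chain, which joins Iglv1 to Iglc1. Iglv2 normally joins the neighbouring constant gene Iglc2, and Iglv1 can also join Iglc3. GC B cells mutate and test such receptors, switch their heavy chain from IgM to IgG, and leave as memory cells or plasma cells.

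The light chain call depends on telling these genes apart, so the coding sequences on which it rests are shown. They are the genome's own coding sequences (GRCm38, the build also called mm10, minus strand, GENCODE M21 models), each printed over its first 300 bases. Capitals mark the bases that differ from a partner: Iglc1 from Iglc2, Iglc2 from Iglc1, Iglc3 from Iglc2, Iglv1 from Iglv2, Iglv2 from Iglv1, Ighv1-72 from Ighv1-62-3 and the reverse. Each constant gene is 1 coding exon, and each V gene is 2 exons whose join is not marked.
Iglc1: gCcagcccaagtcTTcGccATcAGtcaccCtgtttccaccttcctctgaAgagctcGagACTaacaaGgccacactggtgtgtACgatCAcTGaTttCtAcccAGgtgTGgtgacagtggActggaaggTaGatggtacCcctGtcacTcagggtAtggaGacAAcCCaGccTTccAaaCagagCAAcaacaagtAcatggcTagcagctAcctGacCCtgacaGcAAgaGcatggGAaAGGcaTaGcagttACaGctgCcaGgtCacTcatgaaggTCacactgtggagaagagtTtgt
Iglc2: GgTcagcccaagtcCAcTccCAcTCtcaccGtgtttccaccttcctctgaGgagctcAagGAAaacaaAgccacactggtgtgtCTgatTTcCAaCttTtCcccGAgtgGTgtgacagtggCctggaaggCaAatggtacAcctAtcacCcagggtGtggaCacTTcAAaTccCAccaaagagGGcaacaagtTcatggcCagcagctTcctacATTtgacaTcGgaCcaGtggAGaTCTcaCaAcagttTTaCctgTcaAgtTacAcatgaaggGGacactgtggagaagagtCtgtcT
Iglc3: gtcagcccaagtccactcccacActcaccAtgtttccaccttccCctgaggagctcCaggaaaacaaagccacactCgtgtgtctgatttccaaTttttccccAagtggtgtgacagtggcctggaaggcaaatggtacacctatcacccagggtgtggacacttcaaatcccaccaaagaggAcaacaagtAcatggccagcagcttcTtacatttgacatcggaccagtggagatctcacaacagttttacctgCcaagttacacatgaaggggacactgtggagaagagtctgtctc
Iglv1: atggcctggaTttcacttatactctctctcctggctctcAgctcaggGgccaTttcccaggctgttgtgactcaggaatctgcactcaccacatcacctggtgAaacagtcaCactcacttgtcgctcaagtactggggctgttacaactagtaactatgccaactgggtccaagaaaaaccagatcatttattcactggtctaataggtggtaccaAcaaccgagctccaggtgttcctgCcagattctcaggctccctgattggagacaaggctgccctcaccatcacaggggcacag
Iglv2: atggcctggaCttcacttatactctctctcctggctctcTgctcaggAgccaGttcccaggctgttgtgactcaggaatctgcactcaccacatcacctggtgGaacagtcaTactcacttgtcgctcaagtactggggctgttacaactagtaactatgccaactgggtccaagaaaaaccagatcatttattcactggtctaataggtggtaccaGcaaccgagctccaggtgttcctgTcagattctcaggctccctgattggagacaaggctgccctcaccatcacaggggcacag
Ighv1-72: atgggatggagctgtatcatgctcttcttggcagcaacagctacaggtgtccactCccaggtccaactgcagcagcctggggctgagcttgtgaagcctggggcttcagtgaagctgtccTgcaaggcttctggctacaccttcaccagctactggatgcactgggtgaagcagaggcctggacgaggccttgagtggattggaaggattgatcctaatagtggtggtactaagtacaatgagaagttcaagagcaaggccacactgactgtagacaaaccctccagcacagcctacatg
Ighv1-62-3: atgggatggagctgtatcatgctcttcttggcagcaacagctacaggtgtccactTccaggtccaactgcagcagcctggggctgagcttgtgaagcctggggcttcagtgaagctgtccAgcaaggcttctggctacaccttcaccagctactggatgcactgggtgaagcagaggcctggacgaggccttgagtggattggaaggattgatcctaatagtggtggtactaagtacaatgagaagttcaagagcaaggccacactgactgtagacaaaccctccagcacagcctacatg

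Iglc1 lies at chr16:19061755-19062071, Iglc3 at chr16:19065368-19065681, Iglv1 at chr16:19085017-19085460, Iglc2 at chr16:19198539-19198853 and Iglv2 at chr16:19260401-19260844. Ighv1-72 lies at chr12:115757984-115758416 and Ighv1-62-3 at chr12:115460999-115461431. Over their whole coding lengths Iglc1 was 75.6% identical to Iglc2, whereas Iglc2 and Iglc3 were 96.5% identical and differed at 11 of 314 aligned bases. Iglv1 and Iglv2 were 96.9% identical, with 11 of 351 bases differing. Ighv1-72 differed from Ighv1-62-3 at 3 of 351 bases, and its next nearest genes, Ighv1-53 and Ighv1-64, were 95.4% identical. Reads can be split between members of the pairs Iglc2 with Iglc3, Iglv1 with Iglv2, and Ighv1-72 with Ighv1-62-3, and their counts are uncertain to that extent. Ighv1-62-3 led in at most 3 cells of any chain and library.

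Lambda cells made up 26.0% (2126 lambda, 6056 kappa), 15.6% (1516 and 8181), 59.1% (4291 and 2968) and 56.1% (3645 and 2856) of called cells. The exact 95% intervals were 25.0 to 26.9%, 14.9 to 16.4%, 58.0 to 60.2% and 54.9 to 57.3%, which cover counting error only. Kappa cells outnumbered lambda cells in both Day14 libraries, and lambda cells outnumbered kappa cells in both chimaeras. The chimaeras differ from the Day14 mice in irradiation, depth and table, and these cannot be told apart. The mean lambda constant count was 8.56, 7.35, 11.5 and 9.51 in lambda cells and 3.09, 2.84, 6.37 and 4.42 in kappa cells. Mean Igkc was 20.5, 18.3, 20.3 and 12.8 in kappa cells and 1.97, 2.02, 3.79 and 3.14 in lambda cells. Both classes thus held counts of the other chain, and 30.9, 33.0, 57.0 and 54.2% of lambda cells had at least 2 Igkc counts. At the edge of the rule, 202, 177, 431 and 419 lambda cells and 259, 331, 371 and 399 kappa cells exceeded the other chain by 1 count. A further 147, 173, 343 and 385 cells were tied at 2 or more counts, and 780, 778, 436 and 428 cells fell short of the minimum.

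The variable (V) genes, which the rule did not use, went against the lambda label for many cells. A V chain was called by the same minimum of 2 counts from summed Iglv and summed Igkv genes. Among lambda cells, 56.8, 53.9, 50.6 and 54.7% carried lambda V transcripts and 20.4, 21.9, 47.4 and 44.1% carried kappa V transcripts. Among kappa cells, 66.0, 65.8, 80.4 and 82.4% carried kappa V and 4.4, 2.9, 16.7 and 15.3% carried lambda V. The lambda label was thus contradicted in a larger share of cells than the kappa label in every library, and most often in the chimaeras. The minimum was the same throughout, but mean kappa V counts of lambda cells were 5.08, 4.70, 42.5 and 29.7. Mean lambda V counts of kappa cells were 0.76, 0.52, 14.4 and 13.1. No V chain was called in 485, 367, 87 and 44 lambda cells and in 1797, 2565, 86 and 65 kappa cells. Median UMIs of these cells were 2695, 2561, 2972 and 3357.5 for lambda and 1963, 1893, 2470 and 2572 for kappa. Cells whose constant and V genes named the same chain, called same-chain cells below, numbered 6192 lambda (1208, 817, 2172 and 1995) and 14114 kappa (3994, 5381, 2385 and 2354). In them, lambda cells made up 23.2, 13.2, 47.7 and 45.9%. This set was defined after the values were seen, and the main results below are given both by the rule and in the same-chain cells.

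**Figure D1:**
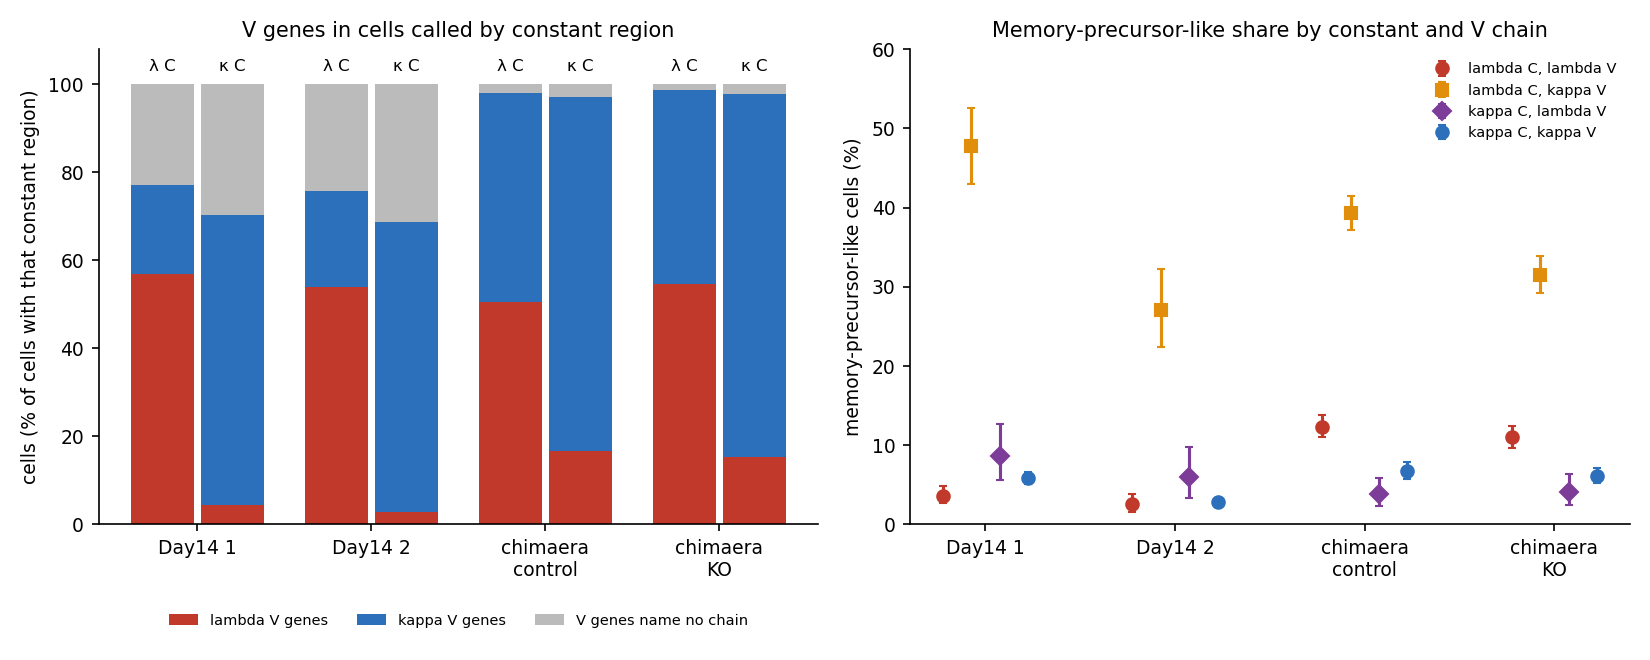
Left, V chain of the cells called lambda (lambda C) and kappa (kappa C) by their constant genes, as stacked percent of cells in each of the 4 libraries. Right, percent of cells in memory-precursor-like clusters by constant and V chain, with exact 95% intervals. Lambda-constant cells with kappa V transcripts are frequent in the chimaeras (47.4 and 44.1%) and are the cells most often in memory-precursor-like clusters in all 4 libraries (27.1 to 47.8%).

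The constant genes also differed between same-chain lambda cells and lambda cells with kappa V transcripts. In same-chain lambda cells the mean Iglc1 count was 6.88, 5.25, 4.82 and 4.41 and the mean Iglc2 count 1.64, 1.44, 3.65 and 3.26. In lambda cells with kappa V the order was the reverse in all 4 libraries, with mean Iglc1 of 3.16, 2.83, 3.34 and 2.71 and mean Iglc2 of 4.52, 4.29, 6.95 and 5.38. Among cells with kappa V, lambda constant counts also followed cell state: they were 19.7, 20.7, 18.2 and 12.9 per 10000 UMIs in memory-precursor-like clusters and 6.78, 6.61, 6.75 and 5.24 in dark-zone-like clusters. Igkc counts per 10000 UMIs of the same cells were lower in memory-precursor-like clusters, with 24.7, 43.0, 9.30 and 8.03, than in dark-zone-like clusters, with 47.1, 45.2, 14.6 and 11.2. The rule, which reads both, called 45.6, 35.2, 80.2 and 73.9% of kappa V cells of the memory-precursor-like clusters lambda, against 3.07, 2.47, 20.5 and 17.7% of those of the dark-zone-like clusters. Where these lambda constant counts came from was not tested.

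Within same-chain lambda cells, Iglv1 led the lambda V genes in 92.2, 79.6, 88.5 and 92.1% of cells and Iglv2 in 6.5, 18.6, 10.5 and 7.3%. Iglv1 cells led with Iglc1 in 89.1% (902 of 1012), 86.4% (488 of 565), 59.0% (973 of 1649) and 58.5% (921 of 1574). Their next constant gene was Iglc2, which led in 5.9, 7.3, 33.7 and 35.8%. Iglc1 thus led in most Iglv1 cells of the Day14 mice and in a smaller majority in the chimaeras, where Igkc counts were also found in more lambda cells. A leading constant gene is the highest count and need not be the joined partner. Iglc2 lies upstream of Iglv1 on the minus strand, and its counts were also found in lambda-constant cells with kappa V transcripts. Joins themselves were not read. Iglv2 cells led with Iglc2 in 41.3% (26 of 63), 34.2% (39 of 114), 59.9% (118 of 197) and 52.8% (65 of 123). They led with Iglc1 in 44.4, 55.3, 29.9 and 39.0%, so that Iglv2 cells had no single leading constant gene.

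Lambda cells used Ighv1-72, the heavy chain segment of the canonical anti-NP antibody, more often than kappa cells in every library. Of cells with a leading heavy V gene (highest count, at least 2, no tie), Ighv1-72 led in 149 of 533 lambda cells of Day14 1 (28.0%), 90 of 381 of Day14 2 (23.6%), 751 of 3158 of the control chimaera (23.8%) and 665 of 2619 of the KO chimaera (25.4%). In kappa cells it led in 187 of 1125 (16.6%), 96 of 1619 (5.9%), 260 of 1867 (13.9%) and 209 of 1816 (11.5%). The exact 95% intervals of lambda and kappa cells did not overlap in any library. They cover counting error only and treat cells of 1 clone as separate cells, so the comparison rests on the libraries. The mean difference was 13.2 percentage points (SD 3.43, n = 4 libraries), at an exact sign-flip permutation p of 0.13 (two-sided), the smallest that 4 libraries allow, and 0.312 after Benjamini-Hochberg adjustment over the 15 shares compared.

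The gap was wider in same-chain cells. Ighv1-72 led in 115 of 279 (41.2%), 73 of 201 (36.3%), 646 of 1498 (43.1%) and 611 of 1358 (45.0%) same-chain lambda cells. Among same-chain kappa cells it led in 164 of 971 (16.9%), 80 of 1370 (5.84%), 95 of 1520 (6.25%) and 67 of 1517 (4.42%). The mean difference was 33.1 points (SD 7.16, n = 4 libraries), with the same exact permutation p of 0.13 (0.47 adjusted over the 15 shares). With 4 libraries no share difference can pass such an adjustment, and none did. Among IgG1 cells alone the mean difference was 25.0 points by the rule and 46.5 points in same-chain cells. Among cells whose constant and V genes disagreed, Ighv1-72 led in 8.5, 7.4, 6.1 and 3.9% of lambda-constant cells with kappa V. It led in 31.9% (15 of 47), 15.1% (8 of 53), 48.2% (159 of 330) and 48.5% (141 of 291) of kappa-constant cells with lambda V. The share was thus higher with lambda V in every library. In Day14 2, however, 15.1% was nearer to its same-chain kappa cells (5.84%) than to its same-chain lambda cells (36.3%). A heavy V gene could be called in 25.1, 25.1, 73.6 and 71.9% of lambda cells and 18.6, 19.8, 62.9 and 63.6% of kappa cells, so the Day14 shares rest on the smaller part of those cells.

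**Figure D2:**
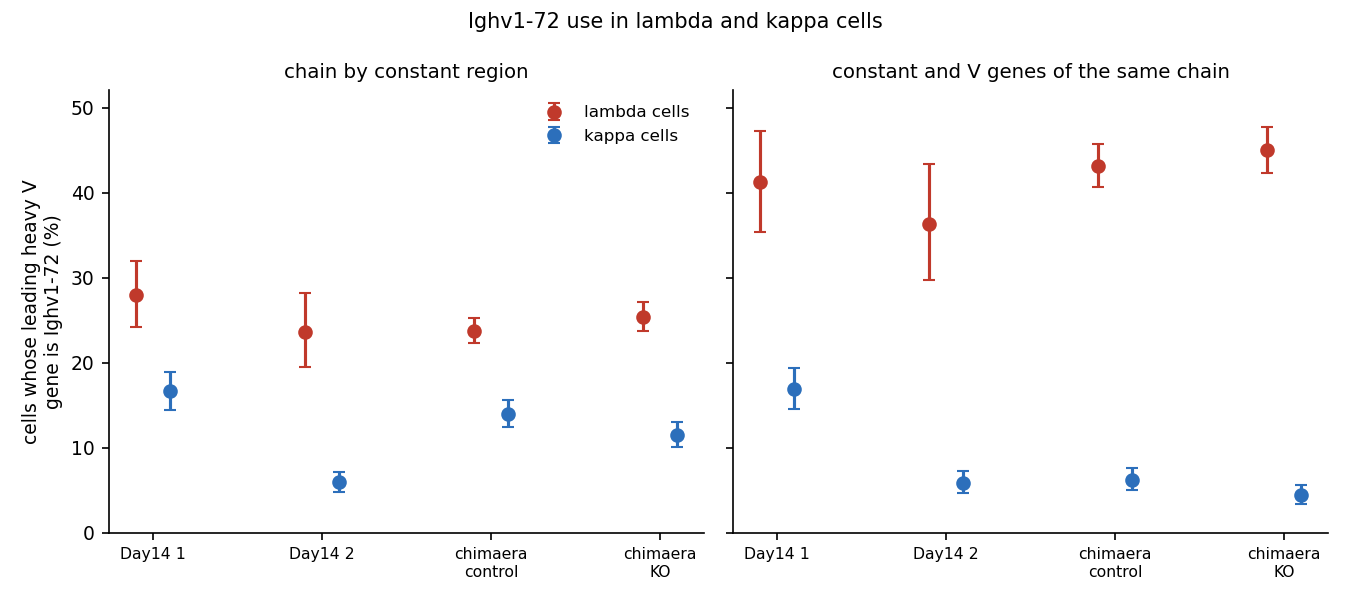
Percent of cells with a leading heavy V gene whose leading gene is Ighv1-72, for lambda and kappa cells of each library, by the constant gene rule (left) and in same-chain cells (right), with exact 95% intervals. Lambda cells lie between 23.6 and 28.0% by the rule and between 36.3 and 45.0% in same-chain cells, above the kappa cells of the same library throughout.

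Heavy V use was less even in same-chain lambda cells than in kappa cells, over 44, 41, 82 and 79 different genes against 90, 89, 97 and 94. These numbers of genes rest on 279, 201, 1498 and 1358 lambda and 971, 1370, 1520 and 1517 kappa cells. Fewer cells can show fewer genes, so the Day14 gaps in gene number are not a measure of use. After Ighv1-72, Ighv14-3 led in 14.3, 7.5, 12.3 and 10.0% and Ighv14-2 in 10.4, 9.0, 3.1 and 1.8%. The inverse Simpson index, which counts how many equally used genes would give the same evenness, was 4.87, 6.30, 4.76 and 4.53 for heavy V genes of lambda cells and 19.7, 8.87, 41.3 and 43.1 for those of kappa cells. With Ighv1-72 left out it was 9.71, 15.1, 13.4 and 16.5 in lambda cells and 31.2, 8.11, 43.3 and 43.0 in kappa cells. The lower figure for lambda cells thus held without Ighv1-72 in 3 of 4 libraries, and Day14 2 was the exception. In that library Ighv3-6 led in 30.9% of same-chain kappa cells, against 5.4, 4.1 and 3.6% in the others.

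The leading light chain V genes of same-chain cells with Ighv1-72 are given for each chain, which the choice of same-chain cells sets apart. In same-chain lambda cells with Ighv1-72, Iglv1 led in 92.0, 67.1, 96.1 and 94.6% and Iglv2 in 8.0, 32.9, 3.6 and 5.2%. In same-chain kappa cells with Ighv1-72 the leading partners of the Day14 mice were Igkv3-5, with 59.0 and 6.6%, and Igkv3-10, with 18.0 and 40.8%. Those segments led in at most 2.1 and 1.1% of such cells in the chimaeras. The tables list only 3 lambda V genes, against 160 kappa V genes for the Day14 mice and 117 for the chimaeras. Iglv1 also led in most of all same-chain lambda cells, as given above. Its lead in all 4 libraries therefore does not set Ighv1-72 cells apart, and sharing of a segment cannot be compared between the chains. Which clones these cells belong to was not analysed here.

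Lambda cells had switched to IgG2c less often than kappa cells in every library, and to IgG1 more often only in some. By the leading heavy constant gene, IgG2c made up 0.42, 3.10, 2.85 and 1.47% of lambda cells and 3.37, 13.3, 5.53 and 2.32% of kappa cells. The mean difference was -4.18 points (SD 4.14, n = 4 libraries; exact permutation p 0.13, the smallest possible). In same-chain cells the shares were 0.54, 2.41, 1.79 and 1.06% against 3.69, 14.95, 6.35 and 2.81%, with a mean difference of -5.50 points (SD 4.83). Day14 2 held a deposited cluster of 321 cells, all from that library, of which 93.5% were kappa and whose called isotype was IgG2c in 190 of 218 cells. Without it the mean difference by the rule was -3.76 points (SD 3.34), and lambda stayed below kappa in 4 of 4 libraries. Without Day14 2 as a whole the mean difference was -2.16 points by the rule and -3.15 in same-chain cells.

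IgG1, the isotype that dominates alum responses, made up 18.7, 14.0, 22.9 and 22.1% of lambda cells and 11.1, 6.3, 23.1 and 26.1% of kappa cells by the rule. It was higher in lambda cells of the Day14 mice and not of the chimaeras, with a mean difference of 2.79 points (exact permutation p 0.5). In same-chain cells the shares were 20.2, 15.4, 29.5 and 26.1% against 9.7, 5.5, 22.3 and 26.1%. The differences were then 10.6, 9.89, 7.22 and 0.09 points, with a mean of 6.94 (SD 4.79, n = 4 libraries; exact permutation p 0.13, the smallest possible). IgM made up 68.1, 67.2, 64.2 and 68.1% of lambda and 72.2, 63.7, 58.9 and 64.5% of kappa cells by the rule, with no common direction.

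**Figure D3:**
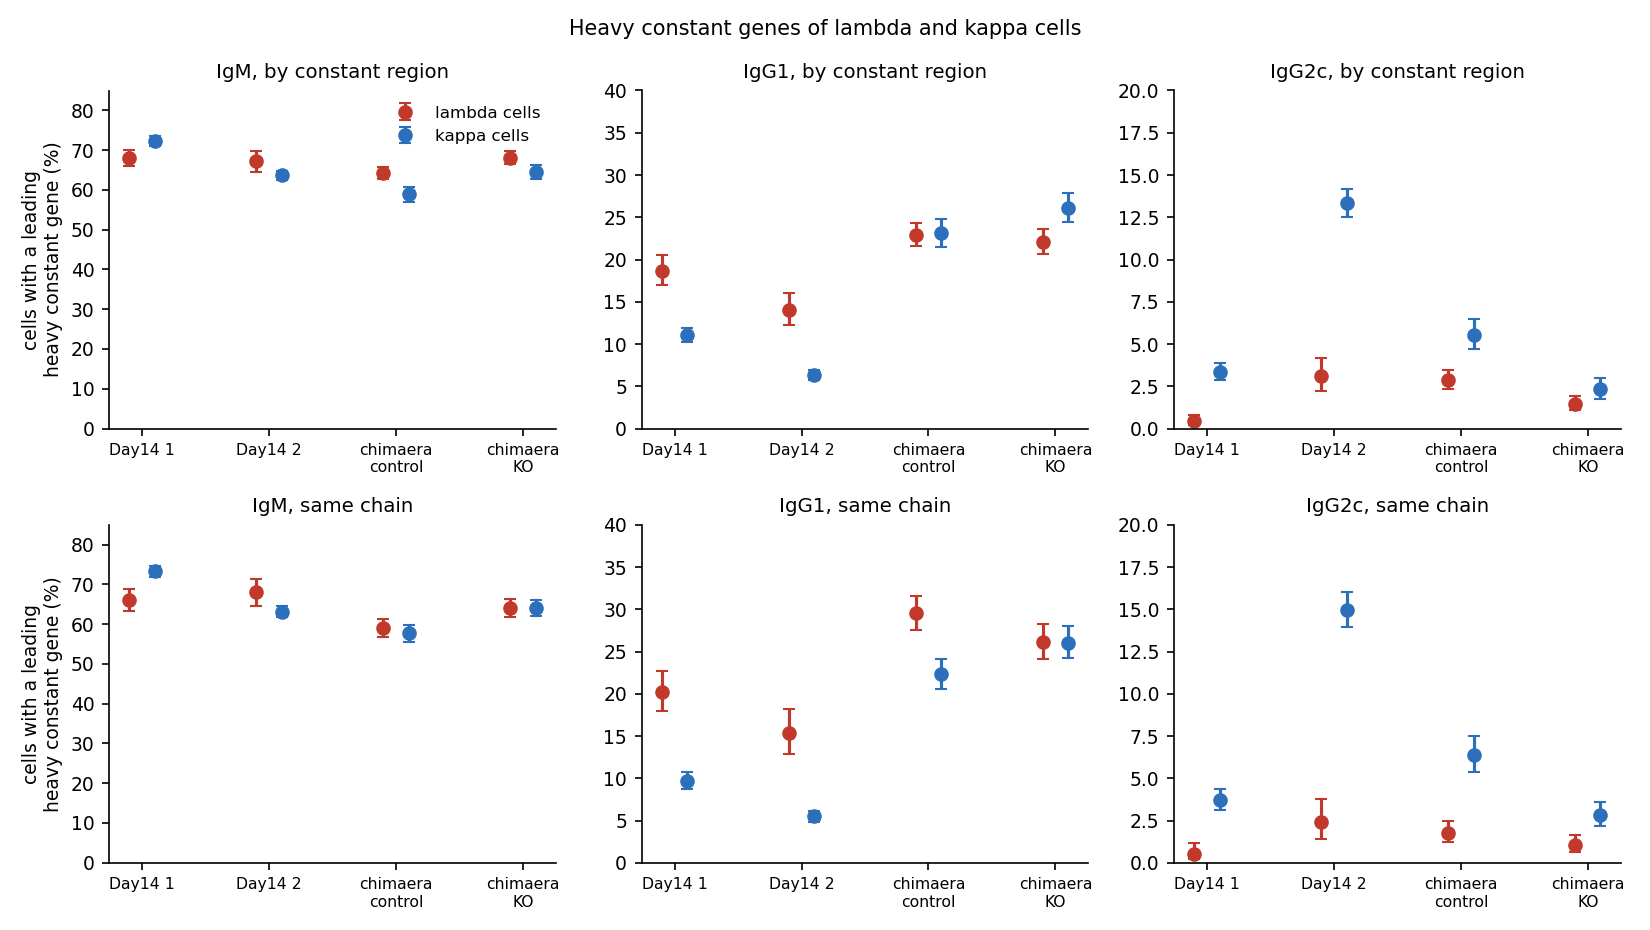
Percent of cells with a leading heavy constant gene that lead with the gene of IgM, IgG1 or IgG2c, for lambda and kappa cells of each library, by the rule (top) and in same-chain cells (bottom), with exact 95% intervals. IgG2c is lower in lambda cells of all 4 libraries (0.42 to 3.10% against 2.32 to 13.3% by the rule), and IgG1 lies above kappa in the Day14 mice only by the rule.

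Where lambda cells stood in the GC depended on how the chain was called. By the rule, memory-precursor-like clusters held 11.9, 7.39, 25.0 and 20.1% of lambda cells and 4.38, 2.14, 6.17 and 5.78% of kappa cells, a mean difference of 11.5 points (SD 6.22, n = 4 libraries). In same-chain cells they held 3.64, 2.57, 12.3 and 11.03% of lambda and 5.86, 2.79, 6.75 and 6.12% of kappa cells. The differences were then -2.22, -0.22, 5.59 and 4.91 points, so the direction differed between Day14 mice and chimaeras. Lambda-constant cells with kappa V were in these clusters in 47.8, 27.1, 39.4 and 31.5% of cases. The clusters were named from their markers and may have been drawn with immunoglobulin genes, so these shares are a description.

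Plasma-like clusters held 1.46, 0.79, 2.35 and 1.40% of lambda cells and 2.05, 1.58, 6.17 and 2.87% of kappa cells by the rule. In same-chain cells they held 2.15, 1.35, 3.04 and 1.85% against 2.95, 2.25, 7.46 and 3.40%, so lambda cells were the lower in 4 of 4 libraries either way. The deposited cell cycle calls put more lambda than kappa cells in G1 by the rule, by 3.90, 5.91, 13.6 and 8.30 points, and fewer in G2M. In same-chain cells the G1 differences were -2.25, -0.80, 4.76 and 0.56 points. Light zone calls differed by -1.10, 0.25, 11.2 and 7.78 points by the rule and by -5.92, -2.84, 0.89 and -2.28 points in same-chain cells. No difference in the deposited cell cycle or zone calls had 1 direction in all 4 libraries in same-chain cells.

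Across non-immunoglobulin genes, the rule found 954 genes higher and 659 lower in lambda cells of 11619 tested (13.9% called, 8.21% higher and 5.67% lower; edgeR quasi-likelihood test on 8 sums of counts with a library block, Benjamini-Hochberg adjusted p under 0.05). Without TMM, the scaling that sets library sizes, 577 were higher and 1472 lower, so the balance of directions rests on the scaling. In same-chain cells 146 genes were higher and 197 lower of 11190 tested (3.07% called, 1.3% higher and 1.76% lower), or 73 and 290 without TMM. Of the genes called in same-chain cells, 90 of those higher and 133 of those lower were called the same way by the rule. That was 61.6 and 67.5% of the same-chain calls but 9.43 and 20.2% of the calls by the rule.

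Genes of resting and memory B cells were higher in lambda cells by the rule. Plac8 had 35.0, 33.9, 238 and 164 CPM in lambda cells and 13.3, 7.01, 55.6 and 36.6 CPM in kappa cells (log2 change 2.01, SE 0.10, adjusted p 8.9e-06). Every library's lambda value was above its kappa value. Ccr6, a chemokine receptor of memory B cells, had 8.22, 4.98, 59.5 and 29.7 CPM against 3.28, 1.37, 13.7 and 9.97 (log2 change 1.80, SE 0.11). Klf2, which directs B cell recirculation, rose by 1.35 on the log2 scale. The survival factor Bcl2 rose by 1.42, the egress receptor S1pr1 by 1.13 and the memory regulator Hhex by 1.48. In all, 11 of 17 memory-associated genes rose and 0 fell, with a median change of 0.81 against 0.00 over all genes tested.

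In same-chain cells these genes lost most of their difference. Of the 17 memory-associated genes 0 rose and 0 fell by edgeR, with a median of 0.15 and 4 at an unadjusted p under 0.05, and DESeq2 called 0. DESeq2 left many genes without an adjusted p, and its counts here and below take these as not called. Of 25 genes followed, 23 were called by edgeR in same-chain cells, and 7 of the 23 had a DESeq2 adjusted p. A DESeq2 count of 0 is therefore not a second negative test of each gene. Plac8 had 10.6, 9.2, 94.8 and 78.5 CPM against 15.7, 7.32, 61.1 and 36.0 (log2 change 0.64, SE 0.14, adjusted p 0.02), higher in 3 of 4 libraries and lower in Day14 1. That call was lost without memory-precursor-like clusters (-0.03, adjusted p 0.94), without the KO chimaera (0.35, adjusted p 0.092), without the control chimaera (0.60, adjusted p 0.11) and without Day14 2 (0.66, adjusted p 0.068), and DESeq2 gave 0.42 with no adjusted p. Ccr6 changed by 0.31 (adjusted p 0.34), Klf2 by 0.35 (adjusted p 0.18) and Bcl2 by 0.06. Within cells with kappa V transcripts, those called lambda by their constant genes had 15 of 17 memory-associated genes higher and 17 of 18 G2/M genes lower than those called kappa (of 11240 genes 26.2% were called, 12.2% higher and 14.1% lower). The rule's gene differences thus stood together with the lambda-constant cells that carry kappa V transcripts. Part of the memory-associated difference was also found in same-chain cells with another heavy V gene.

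**Figure D4:**
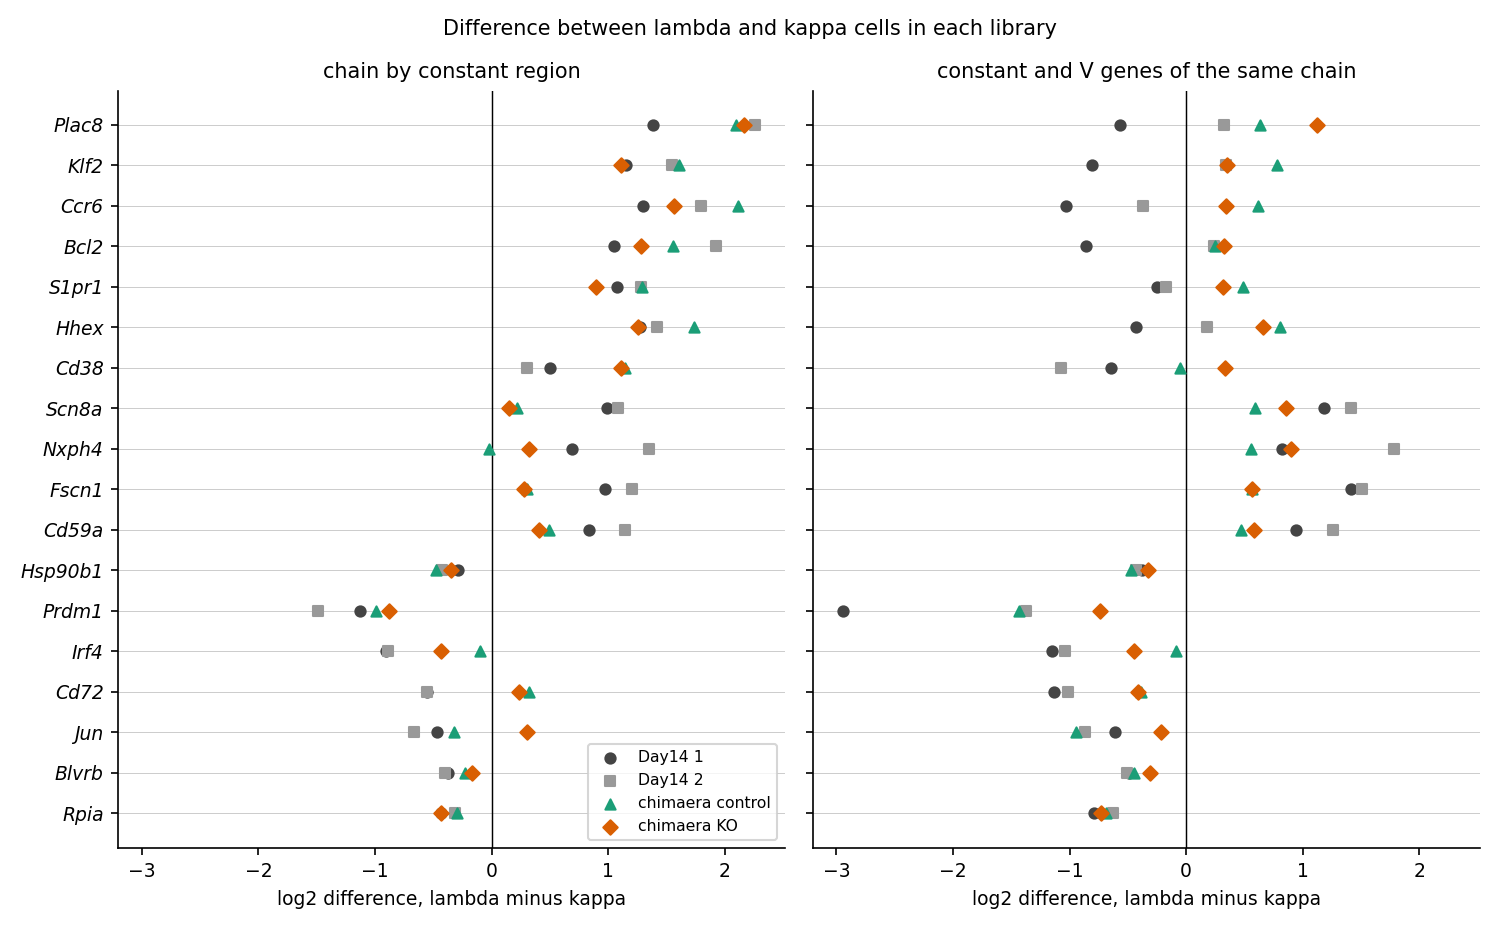
Log2 difference of CPM between lambda and kappa cells for 18 genes, 1 point per library, by the rule (left) and in same-chain cells (right). Memory-associated genes (Plac8 to Cd38) lie above 0 by the rule and on both sides of it in same-chain cells, whereas Rpia and Blvrb lie below 0 in every library in both.

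In same-chain cells the genes higher with lambda were led by Scn8a, a voltage-gated sodium channel, with 15.3, 14.4, 8.5 and 8.14 CPM against 6.66, 5.32, 5.58 and 4.43 (log2 change 1.02, SE 0.13, adjusted p 0.00067). Nxph4, a neurexophilin, had 4.57, 6.74, 9.41 and 8.74 CPM against 2.53, 1.86, 6.34 and 4.62 (0.92, SE 0.17). Cd59a, which protects cells from complement, had 19.99, 18.4, 14.99 and 16.6 CPM against 10.3, 7.61, 10.8 and 10.98 (0.78, SE 0.11). Each was higher in 4 of 4 libraries, and the gaps of Scn8a and Cd59a were larger in both Day14 mice than in either chimaera. Fscn1, an actin-bundling protein, had 14.0, 22.2, 54.4 and 59.6 CPM against 5.15, 7.72, 36.8 and 40.3 (0.78, SE 0.11), and Palm, a membrane-linked phosphoprotein, rose by 0.75. Among same-chain cells with another heavy V gene than Ighv1-72, Fscn1 differed by 0.19 (edgeR adjusted p 0.57). Among those with Ighv1-72 it differed by 0.77 (adjusted p 0.13). With another heavy V gene Scn8a (1.06, adjusted p 0.011) and Nxph4 (0.97, adjusted p 0.021) passed the edgeR test. Cd59a (0.57, adjusted p 0.054) and Palm (0.48, adjusted p 0.14) did not. Among IgG1 cells alone Fscn1 passed the test (0.87, adjusted p 0.00039), and the other 4 did not: Scn8a was -0.03 (adjusted p 1.0), Nxph4 0.44 (adjusted p 0.76), Cd59a 0.71 (adjusted p 0.067) and Palm 0.22 (adjusted p 0.77).

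Genes lower in same-chain lambda cells included Il10, an immunoregulatory cytokine, with 0.999, 1.12, 0.26 and 0.134 CPM against 5.83, 3.71, 0.507 and 0.257 (log2 change -1.91, SE 0.32, adjusted p 0.0042), at low counts throughout. The glutamate transporter gene Slc1a3 changed by -1.55, Tns3, a tensin of focal adhesions, by -1.79 and Dnm3, a dynamin, by -1.58. Cd72, an inhibitory coreceptor of B cells, had 68.1, 70.3, 110 and 73.3 CPM against 150, 142, 144 and 97.5 (-0.69, SE 0.09, adjusted p 0.00075). By the rule Cd72 differed by -0.12 (adjusted p 0.6). Jun, an immediate early transcription factor, had 26.0, 26.5, 10.3 and 9.81 CPM against 39.7, 48.4, 19.97 and 11.4 (-0.68, SE 0.09, adjusted p 0.00075). Among same-chain cells with another heavy V gene than Ighv1-72, Cd72 was -0.28 (edgeR adjusted p 0.17) and Jun -0.20 (adjusted p 0.80). Among those with Ighv1-72 they were -0.70 (adjusted p 0.13) and -0.999 (adjusted p 0.18). Within same-chain lambda cells, both were lower with Ighv1-72 than with another heavy V gene (-0.87, edgeR adjusted p 2.6e-13, and -0.725, adjusted p 0.019). Of 13 immediate early genes 4 fell, among them Fos (-0.41) and Egr1 (-0.26), and of 16 light zone activation genes 5 fell, among them Nfkbia (-0.22), with 0 rising in either list. Without Day14 2, 1 of the 13 and 2 of the 16 fell, and with DESeq2 0 and 2. Calls over all genes were also fewer, with 56 lower of 10979 without Day14 2 and 27 lower of 11190 with DESeq2, against 197. The light-zone-like cluster of the chimaeras held 23.4 and 21.9% of same-chain lambda cells and 26.2 and 27.4% of kappa cells. An unnamed Day14 cluster whose best marker class was light zone held 4.30 and 5.51% against 6.63 and 7.23%. Another unnamed one, with Jun among its top genes, held 2.15 and 2.08% against 4.86 and 4.27%. The B cell-like Day14 cluster went the other way, with 27.2 and 27.1% against 23.3 and 21.5%.

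Genes of plasma cells were lower in same-chain lambda cells. Prdm1, the transcription factor that drives plasma cell differentiation, had 1.14, 3.59, 3.63 and 2.60 CPM against 9.67, 9.54, 10.0 and 4.43 (log2 change -1.51, SE 0.21, adjusted p 0.001). Irf4, its partner, fell by 0.61 and Xbp1, which drives the secretory programme, by 0.33. Of 15 plasma cell genes 5 fell and 0 rose (median -0.31), and of 13 chaperones of antibody folding 6 fell and 0 rose (median -0.20). Hsp90b1, a chaperone of the endoplasmic reticulum, had 229, 204, 700 and 546 CPM against 298, 275, 969 and 684 (-0.40, SE 0.04, adjusted p 4.3e-05). Prg2, which encodes a granule protein, fell by 1.72, but by 0.58 without the control chimaera (adjusted p 0.14), and DESeq2 gave -1.01 with no adjusted p. Irf4 did not pass without Day14 2 (-0.51, adjusted p 0.13), and Xbp1 did not pass without Day14 2 (-0.32, adjusted p 0.19) or without the control chimaera (-0.19, adjusted p 0.17). The lambda values were the lower in 4 of 4 libraries for Prdm1 and Hsp90b1.

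Lambda cells were also the less frequent in plasma-like clusters in every library, as given above. Without those clusters 1 plasma cell gene fell and 1 rose of 13, and 0 of 13 chaperones changed (0 fell, 0 rose). The medians of the plasma cell genes and chaperones were 0.01 and -0.01. Calls over all genes also dropped, to 64 higher and 110 lower of 11121, against 146 and 197 of 11190 with those clusters. Hsp90b1 was then -0.16 (adjusted p 0.092), Prg2 -0.47 (adjusted p 0.51) and Xbp1 -0.11 (adjusted p 0.24), whereas Prdm1 was -1.24 (adjusted p 0.033) and Irf4 -0.58 (adjusted p 0.078), near its value with those clusters. Leaving out Day14 2 left 1 of 15 plasma cell genes and 1 of 13 chaperones lower, and DESeq2 called 1 and 3. Over all genes these settings gave 56 lower of 10979 and 27 lower of 11190, so lost calls were not particular to these lists.

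Of the other lists, 5 of 10 MHC class II genes rose by the rule and 0 passed in same-chain cells (1 at an unadjusted p under 0.05, and 0 by DESeq2). Of 18 G2/M genes 12 fell by the rule (median -0.25), and 0 passed in same-chain cells (median -0.11, with 8 at an unadjusted p under 0.05 and 0 by DESeq2). Of 16 GC identity genes 2 rose in same-chain cells, among them Gcsam, a signalling adaptor of GC cells, by 0.23. Gcsam did not pass without Day14 1 (0.14, adjusted p 0.15), without Day14 2 (0.24, adjusted p 0.19) or without plasma-like clusters (0.20, adjusted p 0.094), and was -0.0007 in IgG1 cells (adjusted p 1.0). Of 12 glycolysis genes 3 rose in same-chain cells: Gapdh by 0.18, Pgk1 by 0.19 and Eno1 by 0.15. None of the 20 genes of B cell receptor signalling and none of the 15 of MYC-driven growth passed in same-chain cells by the edgeR test, with 5 and 3 at an unadjusted p under 0.05 and 0 of either by DESeq2. Of the markers of other cell types, 0 of 4 T cell, 0 of 7 myeloid, 0 of 3 stromal and 0 of 4 erythroid genes tested passed there by edgeR, with 1, 2, 0 and 2 at an unadjusted p under 0.05 and 0 by DESeq2.

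A gene beside the kappa locus was lower in lambda cells of every library. Rpia, which encodes an enzyme of the pentose phosphate pathway, lies at chr6:70765720-70792232 (GRCm38), 38.75 kb beyond Igkc at chr6:70726435-70726966. In same-chain lambda cells it had 41.0, 44.9, 53.3 and 33.3 CPM, against 71.1, 69.5, 86.0 and 55.4 CPM in kappa cells. The log2 differences were -0.79, -0.63, -0.69 and -0.73, all within a narrow range (log2 change -0.71, SE 0.05, adjusted p 4.6e-07). By the rule the change was -0.37 (SE 0.04, adjusted p 0.00078). Among cells with kappa V transcripts, the constant gene call made no detectable difference to Rpia (-0.02, SE 0.08, adjusted p 0.89).

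Rpia kept this difference in the subsets examined. It was -0.78 (SE 0.14) among same-chain cells with Ighv1-72 and -0.73 (SE 0.08) among those with another heavy V gene. Among same-chain IgG1 cells it was -0.90 (SE 0.10), without plasma-like clusters -0.69 (SE 0.05) and without memory-precursor-like clusters -0.71 (SE 0.05), and all 5 passed the edgeR test. Without the library block it was -0.71 (SE 0.19) and did not pass. The Rpia difference of the chimaeras was 0.01 (SE 0.10, adjusted p 0.98) from that of the Day14 mice on the log2 scale, an interaction that did not pass.

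Of 25 tested genes within 2000 kb of Igkc, 2 were lower and 0 higher in same-chain lambda cells, against 3.07% of all genes called. The other was Gm30211 (chr6:70719074-70740554), which overlaps Igkc and so shares reads with the gene that defines the classes (-2.18, SE 0.12). Its fall follows from the rule, which leaves Rpia as the only other called gene of this window. Eif2ak3, a stress kinase gene 117.5 kb away and the next tested gene beyond Rpia, showed no detectable difference (0.02, SE 0.05, adjusted p 0.92). Capg, farther along, was 1.15 higher by the rule and 0.26 in same-chain cells (adjusted p 0.34). Within the same distance of the lambda locus 3 of 50 genes were lower in same-chain lambda cells, among them Sdf2l1, a chaperone gene, by 0.28. Blvrb, a biliverdin reductase gene on another chromosome (chr7:27447978-27466144), was also lower in same-chain lambda cells of every library. It had 540, 560, 533 and 482 CPM against 758, 797, 727 and 596 (-0.44, SE 0.04, adjusted p 3e-05), but in IgG1 cells the change was -0.19 (SE 0.06, adjusted p 0.31) and did not pass. Among same-chain cells with another heavy V gene than Ighv1-72 it was -0.30 (edgeR adjusted p 0.0023). Within same-chain lambda cells Blvrb was also lower with Ighv1-72 than with another heavy V gene (-0.32, edgeR adjusted p 4.5e-06). Rpia was not detectably so (-0.10, adjusted p 0.74).

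**Figure D5:**
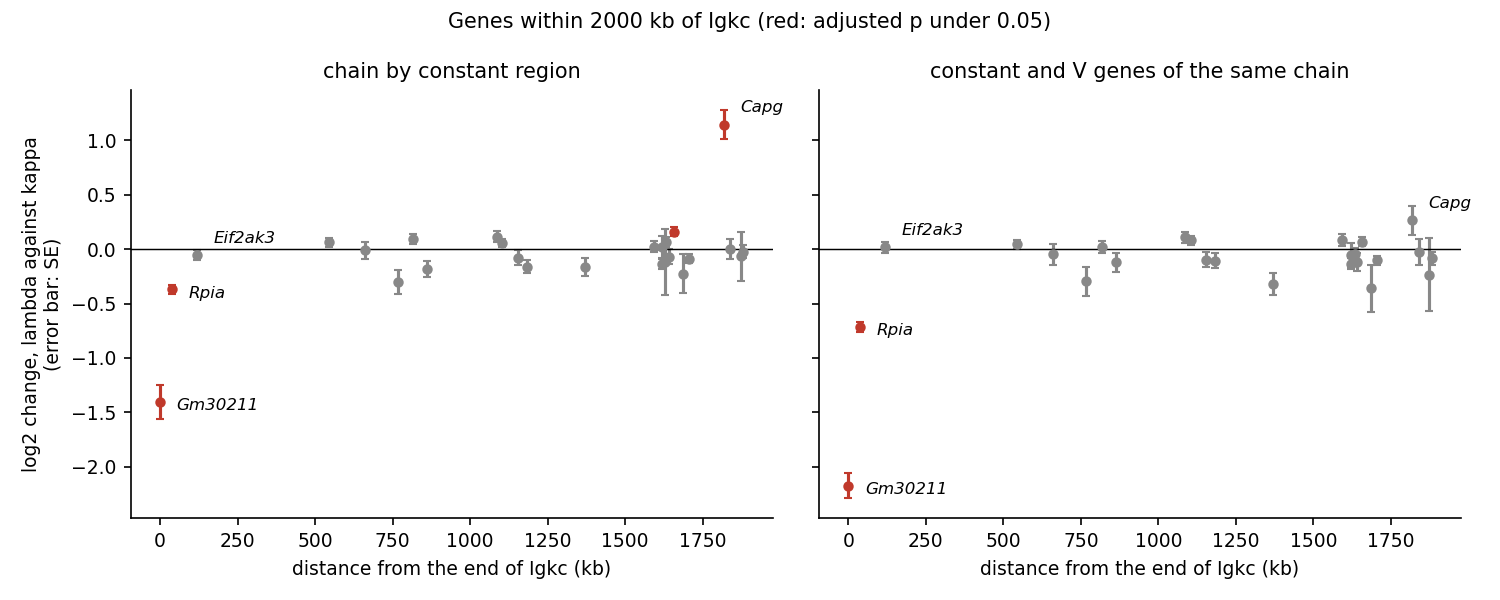
Log2 change between lambda and kappa cells (with its SE) of each tested gene within 2000 kb of Igkc, against its distance from the end of Igkc in kb, by the rule (left) and in same-chain cells (right), with genes at an adjusted p under 0.05 in red. In same-chain cells Gm30211 (-2.18) and Rpia (-0.71), the nearest genes, lie below 0, and no other gene in the window passes. Gm30211 overlaps Igkc and shares reads with it, so its fall follows from how the classes were chosen.

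Within lambda cells, those with Ighv1-72 were set against those with another heavy V gene, to see what goes with the heavy chain when the light chain is held. In same-chain lambda cells 106 genes were higher and 163 lower with Ighv1-72 of 9203 tested (2.92% called, 1.15% higher and 1.77% lower), against 866 and 736 of 9623 by the rule (16.6% called, 9.0 and 7.65%). Slpi, a secreted protease inhibitor of plasma cells, had 162, 43.9, 1700 and 715 CPM with Ighv1-72 and 55.5, 29.6, 366 and 242 CPM without (log2 change 1.87, SE 0.07, adjusted p 4.9e-28). Prg2 had 24.9, 8.37, 22.2 and 6.63 CPM against 4.70, 1.29, 3.46 and 2.09 (2.36, SE 0.23, adjusted p 4.3e-11). Both were higher with Ighv1-72 in 4 of 4 libraries. Of 12 plasma cell genes 5 rose and 0 fell, Derl3 by 0.47 and Edem1 by 0.40, both of the disposal of misfolded protein. Of 13 chaperones 4 rose and 0 fell, and Fscn1 rose by 0.90.

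Plasma-like clusters held 5.2, 6.8, 6.7 and 3.8% of same-chain lambda cells with Ighv1-72 and 7.3, 3.1, 2.7 and 1.7% of those with another heavy V gene, so the share was higher with Ighv1-72 in 3 of 4 libraries. Without those clusters Slpi rose by 0.88 (SE 0.07, adjusted p 2.5e-14), Derl3 was -0.15 (adjusted p 0.63) and Edem1 0.17 (adjusted p 0.26), while Fscn1 rose by 0.92. Of 11 plasma cell genes 2 then rose and 1 fell, and of 13 chaperones 0 rose and 1 fell. Over all genes 119 were then higher and 172 lower of 9084.

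Plac8 was lower with Ighv1-72, with 1.24, 4.18, 32.2 and 32.3 CPM against 47.9, 27.0, 161 and 133 (log2 change -2.22, SE 0.09, adjusted p 6.8e-27). Of 16 memory-associated genes 6 fell and 0 rose, and of 18 G2/M genes 7 rose and 0 fell. Fcrl5, an Fc receptor-like protein of marginal zone B cells, fell by 1.96. Memory-precursor-like clusters held 1.7, 0, 9.9 and 8.3% of same-chain lambda cells with Ighv1-72 and 15.2, 9.4, 21.1 and 19.5% of those with another heavy V gene. The 0 of 73 cells in Day14 2 allows a share of up to 4.11%, taken as 3 cells of 73. Without these clusters Plac8 fell by 1.25 (SE 0.15, adjusted p 3.4e-08), Fcrl5 was -0.999 (adjusted p 0.30), 1 of 9 memory-associated genes fell and 1 rose, and 1 of 18 G2/M genes rose. Calls over all genes also dropped, to 41 higher and 51 lower of 9027, against 106 and 163 of 9203 with them. IgG1 made up 11.4, 14.3, 35.6 and 28.8% of same-chain lambda cells with Ighv1-72 and 10.0, 9.2, 14.8 and 14.6% of the others. The IgG1 difference had 1 direction in 4 of 4 libraries and was larger in the chimaeras (mean 10.4 points, SD 8.81, n = 4 libraries; exact permutation p 0.13, the smallest possible).

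With Ighv1-72 held and the light chain compared, few genes differed. In same-chain cells with Ighv1-72, 2 genes were higher and 5 lower with lambda of 6896 tested (0.102% called, 0.029% higher and 0.0725% lower), against 76 and 26 of 8113 by the rule (1.26% called, 0.937 and 0.32%, or 48 and 37 without TMM). Slpi was one of the 2, with 168, 46.0, 1740 and 723 CPM in lambda and 52.2, 37.8, 545 and 291 CPM in kappa cells (log2 change 1.49, SE 0.11, adjusted p 1.4e-09). Rpia and Blvrb (-0.60, SE 0.09) were among the 5 that were lower. The smallest groups were the 67 kappa cells of the KO chimaera and the 73 lambda and 80 kappa cells of Day14 2. On data simulated for this comparison by the rule, the test recovered 51% of changes of 0.5 and 97% of changes of 1 on the log2 scale. That simulation set the dispersion at 0.01 and changed only genes of higher counts. Its kappa groups were larger, with 260 and 209 cells in the control and KO chimaeras, against 95 and 67 in same-chain cells. Recovery in same-chain cells was not tested.

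Among same-chain cells with another heavy V gene, 68 genes were higher and 101 lower with lambda of 10240 tested (1.65% called, 0.664% higher and 0.986% lower). By the rule 1058 and 807 of 10690 were called (17.4%, or 9.9 and 7.55%). Slpi was there the reverse, with 55.2, 29.1, 379 and 249 CPM in lambda and 73.8, 74.1, 1460 and 583 CPM in kappa cells (-1.46, SE 0.13, adjusted p 1.5e-06). Of 14 plasma cell genes 7 fell and 0 rose, and of 13 chaperones 9 fell and 0 rose, whereas in Ighv1-72 cells 1 of 11 plasma cell genes rose and 0 fell. Prg2 fell by 3.71 and Hsp90b1 by 0.74. Of 17 memory-associated genes 6 rose and 0 fell (median 0.46), and 5 rose and 0 fell without plasma-like clusters. Plasma-like clusters held 7.3, 3.1, 2.7 and 1.7% of these lambda cells and 9.4, 6.4, 12.1 and 5.3% of these kappa cells. Without those clusters 0 of 13 plasma cell genes passed the edgeR test (4 at an unadjusted p under 0.05), 1 of 13 chaperones rose and 0 fell. Calls over all genes also dropped, to 49 higher and 30 lower of 10080. Slpi was then -0.18 (adjusted p 0.30), Prg2 -1.11 (adjusted p 0.33) and Hsp90b1 -0.12 (adjusted p 0.52). Whether the light chain difference itself depended on the heavy V gene was not tested, and the 3 comparisons share cells.

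The light chain differences were also set against the kind of mouse. An interaction of chain with the pair of libraries (chimaeras against Day14 mice) was past the threshold for 396 genes in 1 direction and 1047 in the other by the rule (12.4% of 11619, 3.41 and 9.01%), and for 205 and 220 in same-chain cells (3.8% of 11190, 1.83 and 1.97%). The difference of Plac8 was larger in the chimaeras by the rule, by 0.37, and those of Fscn1 and Scn8a smaller, by -0.82 and -0.85. In same-chain cells these interactions were 1.13 for Plac8 (adjusted p 0.00083), -0.92 for Fscn1 (adjusted p 0.00016) and -0.57 for Scn8a (adjusted p 0.17), and that of Scn8a did not pass. The chimaeras and the Day14 mice differ in irradiation, depth, table and background counts of the other chain, and these cannot be told apart.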

How the data were processed

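GC B cells of 4 libraries were analysed as UMI counts per gene and cell, the whole-number counts that the authors deposited unnormalised. Cell Ranger, Seurat and mm10 are named, per the submitters' processing notes, without versions. Library, cell cycle phase, zone and cluster of each cell came from the deposited cell tables, and how they were made is not given in the sources used here. All deposited cells were kept. No doublet caller was run, and an alternative removed the 5% of cells with the most UMIs. Total UMIs were 35637133, 39839045, 62202828 and 59690886, and intervals (exact Clopper-Pearson, 95%) cover counting error only.

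Members, gene lists and tests were chosen with earlier results of these data known. Counts of symbols listed in both tables were summed over the lambda and over the kappa cells of each library (8 sums), without immunoglobulin genes, which the rule reads. Summed marker CPM are scaled to the total of such a sum. CPM of single genes are scaled to the TMM library sizes over the genes kept in that comparison, so they differ slightly between comparisons of the same cells. edgeR 4.0.16 (R 4.3.3) was used with TMM, filterByExpr and a library block, because lambda and kappa cells of 1 library come from the same tissue, at a Benjamini-Hochberg adjusted p under 0.05. SE were derived from the test. Shares were compared by exact sign-flip permutation over 4 libraries (SciPy 1.17.1), two-sided, for which 0.13 (rounded) is the smallest p possible. The edgeR fits by the rule were tested on simulated data, with 100 genes per size, drawn from genes of higher counts. The dispersion was set at 0.01 and not estimated from the data. For lambda against kappa, 81% were recovered at a log2 change of 0.5 and 100% at 1, with 7 false calls among 11497 genes. For Ighv1-72 against other heavy V genes these were 58% and 99% (8 of 9517), and within Ighv1-72 cells 51% and 97% (3 of 7973). Deposited clusters were named from markers ("-like"). Named genes were the 12 with the largest change in each direction among those past the threshold with 1 sign in 4 libraries, plus members of each list, leaving aside ribosomal, mitochondrial, predicted and immunoglobulin genes. Fcrl5, Cd72, Rpia, Blvrb, Gm30211, Eif2ak3, Capg and other genes outside this rule were named after their values were seen, and some list members are not reported here. Alternatives covered the chain rule, scaling, filter, DESeq2 1.42.0, thinning to 1000 UMIs, isotype, cluster shares and leaving out each library. Genes to which DESeq2 gave no adjusted p were counted as not called.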

Additional observations from a re-analysis of the deposited data

Results flagged for a closer look

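Several results differed between the chimaeras and the Day14 mice. The interaction of chain with the pair of libraries passed the edgeR test for 1443 genes by the rule and 425 in same-chain cells. Genes named in the report whose log2 change was larger (more positive) in the chimaeras by the rule were Plac8 (by 0.37), Fcrl5 (0.82), Cd38 (0.71), Irf4 (0.67), Cd72 (0.84), Jun (0.51), Slc1a3 (1.05), Abcb4 (1.11), Dnm3 (1.29), Gm30211 (0.99) and Blvrb (0.19). Those whose change was smaller were Prg2 (-1.62), Scn8a (-0.85), Nxph4 (-0.91), Cd59a (-0.52), Fscn1 (-0.82), Palm (-0.97), Serpinf1 (-0.57), Xbp1 (-0.29), Gapdh (-0.20), Mki67 (-0.15) and Slpi (-0.45). Rpia was not among them. In same-chain cells the interaction of Plac8 was 1.13 and that of Scn8a -0.57, which did not pass (adjusted p 0.17).

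Some shares moved one way in both Day14 mice and the other way in both chimaeras, and these differences between the pairs were not tested. IgG1 by the rule was higher in lambda cells by 7.62 and 7.73 points in the Day14 mice and lower in the chimaeras, at -0.21 and -3.99 points. In same-chain cells the G1 share differed by -2.25 and -0.80 points in the Day14 mice and by 4.76 and 0.56 in the chimaeras. The G2M share differed by 0.21 and 0.92 against -7.05 and -4.84 points, and the memory-precursor-like share by -2.22 and -0.22 against 5.59 and 4.91 points. Irradiation, depth and table cannot be told apart as sources of these differences.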

How the results depend on the processing

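Counts of genes called moved with most choices. For lambda against kappa (1613 genes), they were 343 in same-chain cells, 96 in IgG1 cells, 156 at equal cluster shares, 823 after thinning, 710 without memory-precursor-like clusters, 723 with DESeq2 and 762 to 1105 when 1 library was left out. Within same-chain cells (343) they were 21 in IgG1 cells, 130 at equal cluster shares, 176 after thinning, 438 without memory-precursor-like and 174 without plasma-like clusters, 177 with DESeq2, 883 with no filter and 80 (without Day14 2) to 657 (without the KO chimaera). For Ighv1-72 against other heavy V genes in lambda cells (1602) they were 269 in same-chain cells, 249 in IgG1 cells, 291 without plasma-like and 92 without memory-precursor-like clusters in same-chain cells, 493 with DESeq2 and 581 to 1349 with 1 library left out. Within Ighv1-72 cells (102) they were 7 in same-chain cells, 12 with DESeq2, 244 with no filter and 29 to 144 with 1 library left out. Within other heavy V genes (1865) they were 169 in same-chain cells, 79 without plasma-like clusters in same-chain cells, 896 with DESeq2 and 916 to 1639 with 1 library left out. The interaction count of 1443 was 425 in same-chain cells. Without the replicate block, that is, the pairing of lambda and kappa cells by library, each of these edgeR comparisons other than the interaction called 0 genes, and 182, 134, 338, 57 and 451 genes had an unadjusted p under 0.05.

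The Ighv1-72 difference of 13.2 points was 24.8 under the stricter rule, 26.5 without cells with both chains, 25.0 in IgG1 cells, 33.1 in same-chain cells, 33.1 with UMI deciles matched, 32.3 without plasma-like and 35.7 without memory-precursor-like clusters in same-chain cells, 46.5 in same-chain IgG1 cells, 19.4 without memory-precursor-like clusters, 32.7 by V genes alone and 6.49 at a minimum of 5 counts. IgM (2.06) was 11.3 under the stricter rule and -2.95 by V genes alone, and IgG1 was 9.13 by V genes alone. G1 (7.93) was 12.8 under the stricter rule, 2.02 without both chains, 0.57 in same-chain cells, 3.62 without memory-precursor-like clusters and -5.49 by V genes alone. S (-1.34) was 2.53, 0.79, 2.12 and, with UMI deciles matched, 0.56, and -4.80 and 1.62 in light and dark zone cells alone. G2M (-6.59) was -15.4 under the stricter rule, -0.66 in light zone cells and 2.59 by V genes alone. Light zone (4.54) was 11.7, -2.13, -2.53 and -7.74, and dark zone (-5.13) was -12.9, 1.98 and 7.16. The memory-precursor-like share (11.5) was 19.2 under the stricter rule, 2.02 and, with deciles matched, 1.56 in same-chain cells, and -6.24 by V genes alone. The plasma-like share (-1.66) was 0.21 without both chains.

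Against their values by the rule, the single genes that changed sign were Cd38 (-0.21) and Eif2ak3 (0.0165) in same-chain cells, Scn8a (-0.15) and Irf4 (0.0404) in IgG1 cells, Xbp1 under the stricter rule (0.08) and without plasma-like clusters (0.0295), Hsp90b1 (0.0364) and Slpi (0.21) at equal cluster shares, Slpi without plasma-like clusters (0.0461) and Cd72 without Day14 1 or Day14 2 (range over libraries left out -0.288 to 0.0291). Without cells with both chains, Prg2 was 0.98, Xbp1 0.30, Hsp90b1 0.22 and Slpi 1.02. Of 25 genes followed in same-chain cells, those that changed sign against their same-chain value were Plac8 (-0.03) and Klf2 (-0.17) without memory-precursor-like clusters, Hsp90b1 (0.10), Creld2 (0.17), Hspa5 (0.02) and Slpi (0.30) at equal cluster shares, Slpi without plasma-like clusters (0.20), and Scn8a (-0.03), Hsp90b1 (0.07), Creld2 (0.22), Irf4 (0.08) and Gcsam (-0.0007) in IgG1 cells, where 13 of 17 calls were lost. The causes were not tested. Of the alternatives for single genes, 876 kept direction and side of the threshold, 179 kept direction but no longer passed, 41 came to pass and 15 changed sign. The Day14 libraries' depth limits heavy V calls, and 4 libraries cannot give a sign-flip p below 0.13.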

Other observations

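The rarer isotypes IgA and IgE are given as shares. Among same-chain cells, IgA led in 0.09, 0, 0.26 and 0.06% of lambda cells and in 0.08, 0.49, 2.49 and 0.71% of kappa cells, a mean difference of -0.84 points (SD 0.97, n = 4 libraries; exact permutation p 0.25) and -0.38 points without the control chimaera. The 0 of 748 lambda cells of Day14 2 allows up to 0.401% (3 cells of 748), and the shares of Day14 1 were nearly equal. IgE was lower in lambda cells in 4 of 4 libraries, by 0.05, 0.34, 0.09 and 0.02 points.

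The deposited cluster of 321 cells found only in Day14 2, of which 93.5% were kappa, led with Igkv6-23 in 208 of 253 cells (82.2%) and with Ighv1-26 in 37 of 52 (71.2%). Across all same-chain kappa cells Igkv3-2 led in 19.2, 27.4, 2.5 and 1.2% and Igkv6-23 in 1.8, 12.1, 2.3 and 6.5%, so the leading kappa segments differed between libraries.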
